A study of Mus musculus with 26 samples.

Results

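The genes described are the 7 mouse genes that encode 14-3-3 proteins (Ywhab, Ywhae, Ywhag, Ywhah, Ywhaq, Ywhaz and Sfn) and Ywhaq-ps3, a pseudogene copied from Ywhaq. They are the 8 rows with these symbols among the 56941 genes of the deposited tables, and all 8 were found. The 7 coding genes were chosen by symbol as a family, whereas Ywhaq-ps3 was selected on its counts in the high-intensity and control libraries. Its difference between high intensity and control, and every contrast that shares those libraries, is therefore a description without a test.

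RNA was sequenced from 26 cultures of motor neuron spheroids, each derived from the mouse embryonic stem cell line HBG3, labelled HB9::GFP with the genotype heterozygous blastocysts; HB9 (Mnx1) is a transcription factor of motor neurons and here drives the reporter. All groups shared differentiation with retinoic acid plus purmorphamine, CNTF and GDNF from day 5, and plating of spheroids on fibrin at about day 8. Groups were an actuated array (n = 4), in which a magnetic matrix under the cells was moved at 4 Hz for 30 min each day, a static array with the same magnetic silicone that was never moved (n = 4), medium labelled high intensity (n = 6), medium labelled low intensity (n = 6) and a control of the biochemical arm (n = 6). The study's design names muscle-conditioned medium with and without light stimulation of the muscle, but under sample names that cannot be matched to the 2 intensities. All cultures come from 1 cell line, and nothing states that replicates came from separate differentiations, so the p-values measure only the spread between these samples.

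The 14-3-3 proteins are dimeric adaptors that bind partner proteins at phosphorylated serine or threonine sites and change the partner's activity, stability or place in the cell. They are abundant in brain, where they bind kinases, cytoskeletal regulators and ion channels of neurons; Sfn is best known as the epithelial member. A processed pseudogene is a copy of a spliced mRNA that was written back into the genome, so it lacks introns and can resemble its parent base for base.

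The libraries differed widely in depth. Total counts were between 7269276 and 9839951 in the actuated group, 613344 and 13162635 in the static group, 1457250 and 3771637 in controls, 243510 and 3971348 at high intensity, and 1536 and 3602716 at low intensity. In 5 libraries there were at most 1000000 counts on protein-coding genes (static 3, control 4, high intensity 4 and 5, low intensity 6), and the other 21 are called the deeper libraries. Low intensity 6 held 1 count on the whole family, a count of Ywhaz. In the deeper libraries the 5 neuronal markers (Tubb3, Map2, Elavl4, Snap25, Stmn2) summed to between 2370 and 3664 CPM (normalised counts per 1000000), and all 5 motor neuron markers (Mnx1, Isl1, Chat, Slc18a3, Slc5a7) were detected in each group. Glial RNA was also present, with Gfap, the astrocyte filament gene, at between 1360 and 3302 CPM.

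Sequence shows how far the counts of each gene can be told apart. Between the coding sequences of the 7 genes, identity was between 62.6% and 79.0% over the 21 pairs, protein identity was between 59.4% and 86.6%, and no pair shared a stretch of 50 bases, the length of 1 read. An error-free 50-base read from a coding sequence thus matched 1 of the 7 genes. Ywhaq was different, because the annotation holds near copies of it elsewhere. Ywhaq (ENSMUSG00000076432) lies at chr12:21390071-21417637 on the minus strand in build GRCm38 (GENCODE M21). Ywhaq-ps3 (ENSMUSG00000080902), annotated as a transcribed processed pseudogene, lies at chr4:70248636-70249373, also on the minus strand. A further copy, the processed pseudogene Gm2423 (ENSMUSG00000061724), lies at chr13:13232161-13232893.

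Ywhaq-ps3 is 738 bases long, as is the Ywhaq coding sequence, and 735 of these bases (99.6%) are identical, with no gap. The 3 differences are C405T, T609C and C729T, with the base of Ywhaq first, the position counted from 1 at the first base of the Ywhaq coding sequence, and the base of the copy last. All 3 fall on the third base of a codon and leave the encoded residue the same. Gm2423 differs from Ywhaq at 2 positions, G413A, which changes the residue, and T609C, which it shares with Ywhaq-ps3. The stretches around these positions are shown 5′ to 3′ because within the coding sequence only they tell the copies apart; capitals mark the positions that differ between any of the copies. Positions 395 to 423 read:
Ywhaq: tagcttgtggCgatgatcGaaaacaaaca
Ywhaq-ps3: tagcttgtggTgatgatcGaaaacaaaca
Gm2423: tagcttgtggCgatgatcAaaaacaaaca
Positions 599 to 619 read:
Ywhaq: tcgcagagctTgatacactga
Ywhaq-ps3: tcgcagagctCgatacactga
Gm2423: tcgcagagctCgatacactga
Positions 719 to 735 read:
Ywhaq: cagagggggcCgaaaac
Ywhaq-ps3: cagagggggcTgaaaac
Gm2423: cagagggggcCgaaaac

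Of the 689 stretches of 50 bases in Ywhaq-ps3, 579 (84.0%) occur unchanged in a Ywhaq transcript and 619 in Gm2423. Only 60 occur in neither. Ywhaq-ps3 also lies inside Cdk5rap2, a centrosome gene on the same strand, and 365 of its bases overlap an exon of 1 Cdk5rap2 transcript that the annotation gives as untranslated; 316 of its 50-base stretches occur there. The sources used here do not say how reads were divided among these 4 genes, so a count of Ywhaq-ps3 is an estimate of reads assigned to it, not a count of its RNA. Libraries were sequenced as read pairs, and a pair can reach a differing base that a single 50-base read misses.

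**Figure D1:**
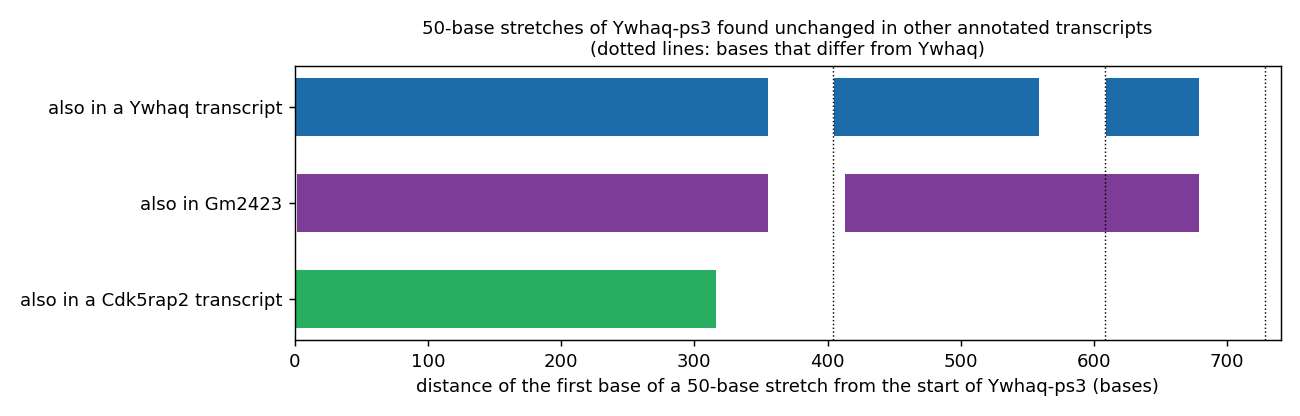
Position along Ywhaq-ps3, as the distance in bases of the first base of each 50-base stretch from the start of the pseudogene, for stretches that also occur in a Ywhaq transcript (579 of 689), in Gm2423 (619) and in a Cdk5rap2 transcript (316). Gaps in the upper bar lie before the dotted lines, which mark the 3 bases that differ from Ywhaq.

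Levels of different genes were compared per length, as shares of the family's TPM (transcripts per 1000000, a length-corrected unit) within a library, over the 25 libraries with at least 1000 counts on the family. Ywhae, whose product binds Ndel1 and acts in neuronal migration, made up the largest share, with a median of 62.8% and a range of 54.9% to 68.5%. Ywhaz, a member often used as a reference gene, followed with a median of 13.0% (9.58% to 19.3%). Ywhah, one of the genes named for activating tyrosine hydroxylase, had a median of 9.81% (5.53% to 13.8%), and Ywhag, whose human counterpart is mutated in an epileptic encephalopathy, 8.04% (5.83% to 12.6%). Ywhab, a binder of Raf kinases, had a median of 3.62% and Ywhaq, first isolated from T cells, 2.66%. Sfn was lowest, with a median of 0.0645% and no library above 0.620%.

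The order was the same in nearly every library. Ywhae exceeded Ywhaz, Ywhag exceeded Ywhab and Ywhaq exceeded Sfn in 25 of 25 libraries, Ywhah exceeded Ywhag in 24, and Ywhaz exceeded Ywhah and Ywhab exceeded Ywhaq in 23. The ranges of neighbouring shares nevertheless overlapped for Ywhaz and Ywhah, for Ywhah and Ywhag, and for Ywhab and Ywhaq. The lead of Ywhae was smaller in the counts, where it held a median of 31.3% of family counts and Ywhaz 24.4%. Relative to the whole family, 1 count of Ywhae was worth a median of 1.97 times as much TPM, against 0.535 times for Ywhaz, and the lengths behind these weights were not analysed here.

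**Figure D2:**
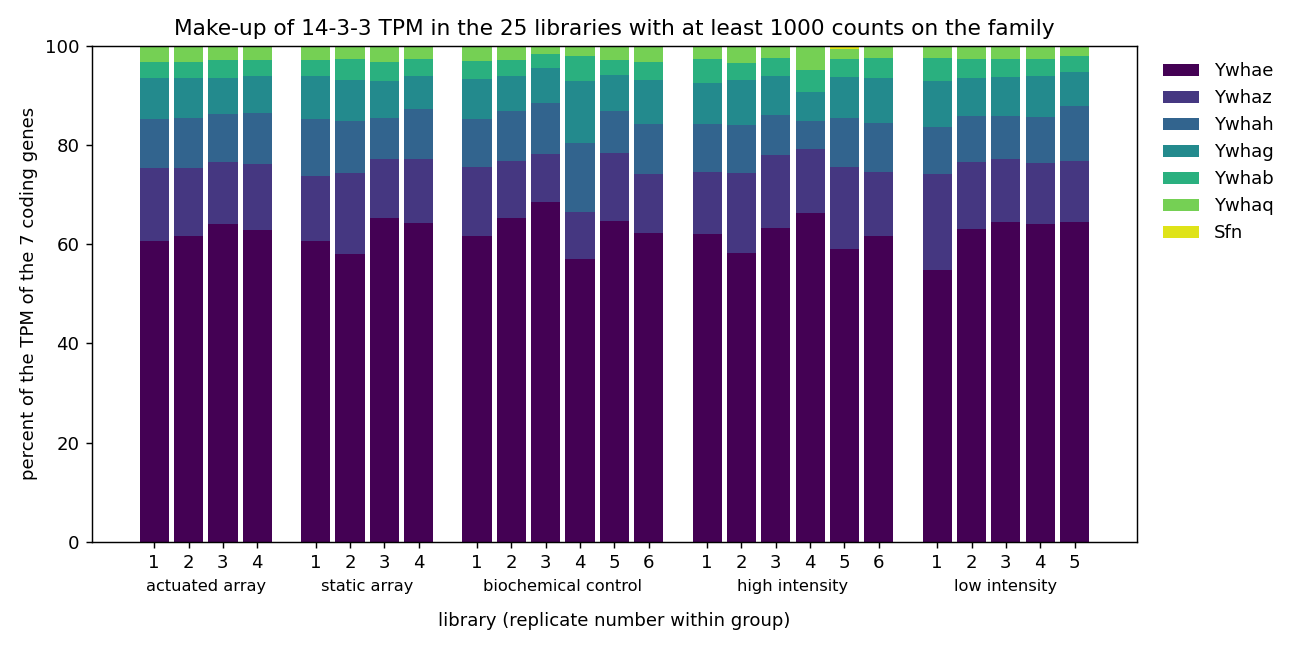
Percent of the TPM of the 7 coding genes held by each gene (stacked colours, vertical axis) in each of 25 libraries (horizontal axis, by group and replicate number). Ywhae fills between 54.9% and 68.5% of every bar, and Sfn is at most 0.620%.

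Between libraries, normalised counts were used, because TPM moved with Rn7s1 and Rn7s2, a pair of small cytoplasmic RNA genes that took between 11.9% and 61.0% of all TPM in the deeper libraries. The 7 coding genes together ranged from 5387 to 5816 CPM in the 4 actuated libraries and from 5500 to 6216 in the 3 deeper static ones. They ranged from 4788 to 5539 CPM in the 5 deeper controls, from 4068 to 4893 at high intensity (4 libraries) and from 5002 to 5234 at low intensity (5 libraries). The highest high-intensity value thus lay under the lowest low-intensity value, while the control range overlapped both. How often other genes separate in this way is not given here, so nothing is read from it. In these bulk samples, fewer cells of a type and less RNA per cell cannot be told apart.

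None of the 7 coding genes passed an adjusted p of 0.05 in any of the 5 comparisons (edgeR quasi-likelihood test, Benjamini-Hochberg over the 14907 genes tested, all 26 libraries). In the same fit 0%, 0.0402%, 0.0268%, 0% and 0.0134% of all genes were called for actuated against static, high intensity against control, low intensity against the same controls, high against low intensity and static against control, so a count of 0 among 7 genes lies at the background. At an unadjusted p under 0.05 the family gave 0, 0, 0, 1 and 0 genes, the 1 being Sfn, beside 3.86%, 7.04%, 5.23%, 2.91% and 5.27% of all genes. DESeq2 and limma voom also called none, and gave 0, 0, 0, 1, 1 and 0, 1, 0, 2, 0 genes at an unadjusted p under 0.05. Standard errors (SE) of the log2 fold changes of the 6 abundant genes were between 0.31 and 0.49 with all libraries. In the 21 deeper libraries the SEs were between 0.09 and 0.12. There 0%, 0.462%, 0.597%, 0% and 0.713% of the 14730 genes tested were called, again with 0 of the 7, and 0, 3, 0, 3 and 3 of them had an unadjusted p under 0.05, beside 0.38%, 15.9%, 15.2%, 7.68% and 12.6% of all genes.

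**Figure D3:**
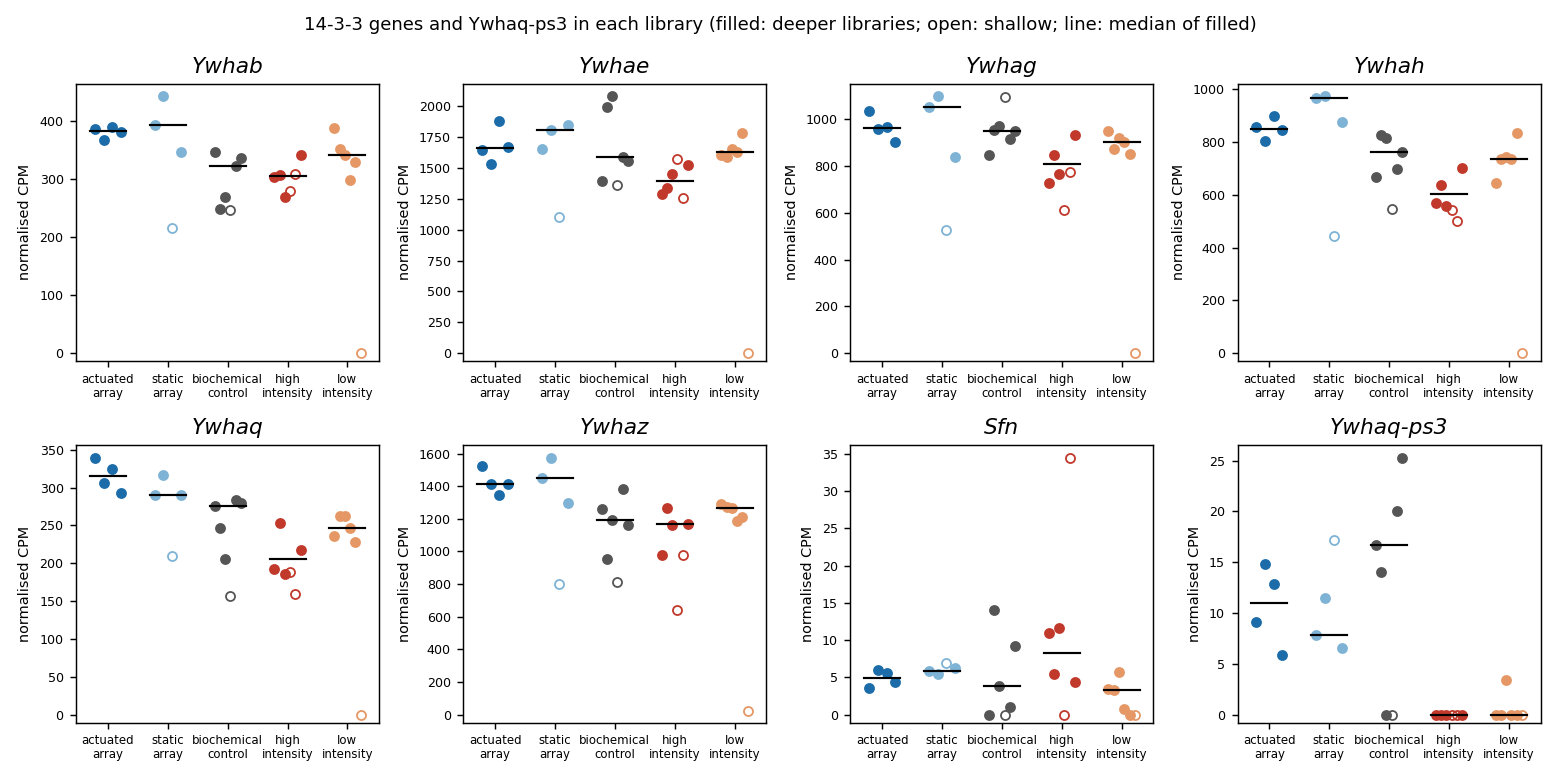
Normalised CPM (linear vertical axes) of the 7 coding genes and Ywhaq-ps3 in each library of the 5 groups (horizontal axis); filled points are the 21 deeper libraries, open points the 5 shallow ones, and lines the median of the filled points. Among the filled points, Ywhaq is at 292 to 339 CPM in the actuated group and at 186 to 253 at high intensity. Ywhah is at 804.5 to 898.8 CPM against 559 to 702, and these 2 groups were not tested against each other. Ywhaq-ps3 is at 0 in all 6 high-intensity libraries, in 5 low-intensity libraries and in 2 controls.

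No 14-3-3 gene differed between moved and unmoved arrays beyond the spread of the libraries. Ywhae stood at 1648, 1536, 1883 and 1669 CPM in the actuated libraries and at 1650, 1805 and 1844 in the deeper static ones. Ywhaz stood at 1524, 1411, 1349 and 1413 CPM against 1448, 1575 and 1300. The ranges overlapped for both genes. In the deeper libraries the 6 abundant genes had log2 fold changes, actuated minus static, between -0.14 (Ywhah) and 0.08 (Ywhaq), with an adjusted p of 1.0 for each. The approximate 95% interval of Ywhaz was -0.23 to 0.21, that of Ywhae -0.30 to 0.17, and that of Ywhah -0.35 to 0.08. Median log2 fold changes were -0.04 for the 7 genes and -0.00042 for all genes tested.

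At high intensity no coding member passed the test against control, and among the 6 abundant genes in the deeper libraries the estimates farthest from 0 were those of Ywhae, Ywhah and Ywhaq. Ywhah stood at 569, 639, 559 and 702 CPM in the 4 deeper high-intensity libraries and at 666, 828, 816, 698 and 762 in the 5 deeper controls. Of the high-intensity values, 3 of 4 lay below every control value, and library 6 lay within the control range. Its log2 fold change was -0.30 (SE 0.10, adjusted p = 0.13; edgeR, deeper libraries), with an approximate interval of -0.49 to -0.10. Leaving out high intensity 6 gave -0.36 with an adjusted p of 0.0595, the lowest of any coding member in any fit made.

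Ywhae stood at 1289, 1337, 1447 and 1526 CPM at high intensity against 1392, 1990, 2079, 1585 and 1560 in controls, with a log2 fold change of -0.31 (SE 0.11, adjusted p = 0.15). Controls 2 and 3 were the highest of all libraries for this gene, and the ranges overlapped. Ywhag stood at 725, 849, 767 and 932 CPM against 846, 953, 970, 914 and 950.

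For Ywhag the log2 fold change was -0.19 (SE 0.09, adjusted p = 0.34), and its ranges overlapped too. Ywhab, at 304, 308, 269 and 343 CPM against 348, 249, 270, 323 and 338, and Ywhaz, at 976, 1266, 1165 and 1169 against 1260, 951, 1194, 1382 and 1161, had log2 fold changes of -0.0042 and -0.064. The intervals were -0.22 to 0.21 for Ywhab and -0.26 to 0.13 for Ywhaz. Over the 7 genes the median log2 fold change was -0.19, beside 0.00 for all genes tested. The summed neuronal markers were also at between 2370 and 3452 CPM in these 4 libraries, against 3342 to 3639 in the deeper controls, and the 4 mesenchymal markers (Col1a1, Col1a2, Col3a1, Dcn) at 839 to 2563 against 319 to 926. Their part in the levels of the 14-3-3 genes was not tested.

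At low intensity no coding member passed the test against control. Ywhae stood at 1603, 1587, 1655, 1632 and 1781 CPM in the 5 deeper low-intensity libraries, and Ywhaz at 1294, 1270, 1267, 1185 and 1210. Both lay inside the range of the deeper controls. Log2 fold changes of the 6 abundant genes against control were, in the deeper libraries, between -0.06 (Ywhaq, adjusted p = 0.84) and 0.17 (Ywhab, SE 0.10, adjusted p = 0.47), and the approximate interval of Ywhab was -0.04 to 0.37.

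In the direct comparison of high with low intensity, the estimates of the 6 abundant genes in the deeper libraries were between -0.13 (Ywhaz) and -0.27 (Ywhah, SE 0.10, adjusted p = 0.54) on the log2 scale, and none passed. Ywhae was the member whose deeper libraries did not overlap, since the highest of 4 values at high intensity was 1526 CPM and the lowest of 5 at low intensity 1587. This difference was -0.25 (SE 0.11, adjusted p = 0.61). The share of all genes without overlap in this comparison is not given here, so nothing is read from the separation. With all 26 libraries the estimate for Ywhae was 0.01 (SE 0.40), so the sign depended on the shallow libraries. The comparison shares the high-intensity libraries with that against control.

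The static arrays, set against the biochemical controls as the other unstimulated group, had the highest values of several genes. High values were not particular to the static arrays. The actuated libraries held Ywhab at 368 to 391 CPM, Ywhah at 804.5 to 898.8 and Ywhaq at 292 to 339. Ywhab stood at 394, 443 and 347 CPM in the 3 deeper static libraries against 249 to 348 in the 5 deeper controls. The estimate on the log2 scale was 0.36 (SE 0.12, adjusted p = 0.17). For Ywhah the values were 968, 973 and 876 CPM, above all 5 deeper controls, with a log2 fold change of 0.30 (SE 0.11, adjusted p = 0.19). Ywhaq, at 290 to 317 CPM, also lay above all 5 deeper controls (206 to 283), with 0.20 (SE 0.12, edgeR adjusted p = 0.51). The share of all genes without overlap is not given here, so nothing is read from these separations.

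Ywhaz had 0.26 (SE 0.11, adjusted p = 0.28) and Ywhae 0.02 (SE 0.12). No coding member passed the test here either. Static 3, the shallow library, had the lowest value of its group for each of the 6 abundant genes, for example 216 CPM of Ywhab. With all 26 libraries, which adds this and the other 4 shallow ones, the estimates were 0.24 for Ywhab and 0.18 for Ywhah. The 4 glial markers (Gfap, Aqp4, Sox10, Olig2) summed to 2440 to 3085 CPM in the deeper static libraries. In the deeper controls they summed to 1422 to 2089 CPM, without overlap. The actuated libraries, at 2106 to 3485 CPM, also lay above the deeper controls. Nothing is read from these separations, since the share of all genes without overlap is not given here. The part of the glial markers in the levels of the genes above was not tested. The arrays and the biochemical cultures differ in the platform as well as in treatment, which cannot be told apart.

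**Figure D4:**
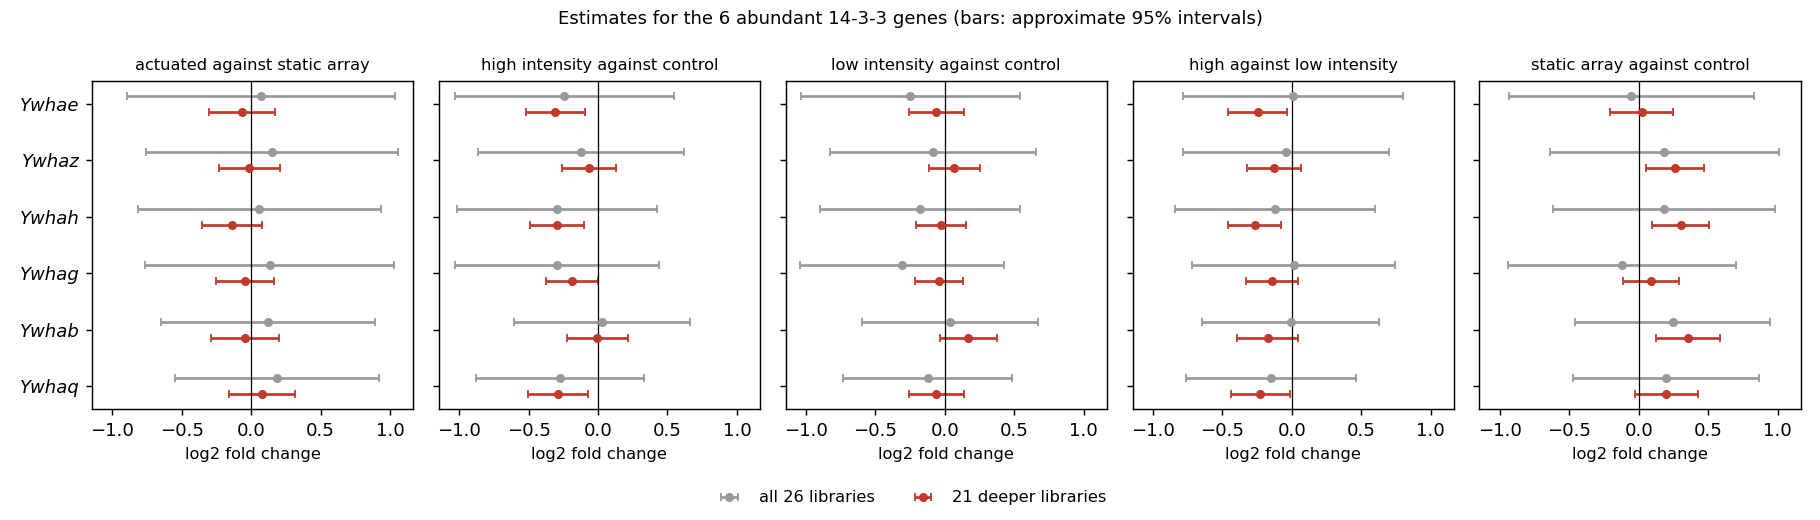
Log2 fold changes (horizontal axes) of the 6 abundant 14-3-3 genes in the 5 comparisons, fitted with all 26 libraries (grey) and with the 21 deeper ones (red); bars are approximate 95% intervals. Actuated against static lies within 0.14 of 0 for every gene in the deeper libraries, and no estimate in any panel passed an adjusted p of 0.05.

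Ywhaq, the parent of the pseudogene, stood at 339, 306, 324 and 292 CPM in the actuated libraries and at 290, 317 and 290 in the deeper static ones. In the deeper controls it stood at 276, 247, 206, 283 and 280 CPM, in the deeper high-intensity libraries at 193, 253, 186 and 218, and at low intensity at 237, 262, 263, 247 and 229. The lowest high-intensity values lay below every deeper control, and the ranges overlapped. The log2 fold change was -0.29 (SE 0.11, adjusted p = 0.19) for high intensity against control, -0.06 (SE 0.10) for low intensity against control and 0.08 (SE 0.12) for actuated against static, all in the deeper libraries. For static against control in the same libraries it was 0.20 (SE 0.12).

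The pseudogene was counted at a small fraction of its parent. Ywhaq-ps3 had 62, 140, 102 and 43 counts in the actuated libraries, beside 2319, 2891, 2581 and 2128 for Ywhaq. In the static group it had 61, 136, 10 and 47, beside 2269, 3760, 122 and 2093. Every array library thus held counts of the pseudogene, and those with most Ywhaq counts had most of Ywhaq-ps3.

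Its share of the counts of both genes was 2.60%, 4.62%, 3.80% and 1.98% in the actuated libraries and 2.62%, 3.49%, 7.58% and 2.20% in the static ones. The 7.58% came from the shallow static 3 and has a 95% Wilson interval of 4.17% to 13.4%, which, like all intervals here, covers counting error only. This comparison shares no library with the contrast on which the pseudogene was listed. The log2 fold change, actuated minus static, was 0.05 (SE 0.88, adjusted p = 1.0; edgeR, all libraries), and 0.31 (SE 0.83) in the deeper ones, with an approximate interval of -1.33 to 1.94. The ranges of both groups overlapped.

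The biochemical arm was split between libraries with and without counts. Ywhaq-ps3 had 52, 36, 0, 0, 38 and 77 counts in controls 1 to 6, that is 5.71%, 5.39%, 0%, 0%, 6.61% and 8.27% of the counts of both genes. Control 3, a deeper library, had 0 beside 483 counts of Ywhaq, which by counting error allows a share of up to 0.621% (3 counts of the total), whereas the shallow control 4 had 0 beside 53, which allows up to 5.66%. These limits and those below do not cover how reads were assigned between the copies. Upper ends of the Wilson intervals are higher, at 0.789% for control 3. The assigned counts of the control group were therefore not uniform, as 4 of its 5 deeper libraries were between 5.39% and 8.27% and 1 had 0 counts.

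All 6 high-intensity libraries had 0 counts of Ywhaq-ps3, beside 685, 556, 398, 65, 65 and 708 of Ywhaq. The 4 deeper ones allow a share of up to 0.438%, 0.540%, 0.754% and 0.424%, and the shallow ones up to 4.62% each. At low intensity the counts were 0, 0, 9, 0, 0 and 0, beside 763, 629, 688, 347, 602 and 0 of Ywhaq. Low intensity 3 alone held counts, with a share of 1.29% (0.681% to 2.44%), below that of each control library in which the pseudogene was counted.

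Pooled over libraries, Ywhaq-ps3 took 203 of 3620 counts in controls (5.61%), 0 of 2477 at high intensity, which allows up to 0.121%, and 9 of 3038 at low intensity (0.296%). Per 1000000 counts of the pooled totals, without TMM scaling, this was 11.7 in controls and 0.658 at low intensity, 17.8-fold apart. The control level was 51.0-fold the limit of 0.229 that 3 counts over the high-intensity group set. The pooled array groups took 3.38% (actuated) and 2.99% (static). High and low intensity share their controls, and the high-intensity values were used to list the gene, so these differences are given without a test. In the fit of all libraries the gene was among the 6 called for high intensity against control (0.0402% of genes), from which nothing is read.

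**Figure D5:**
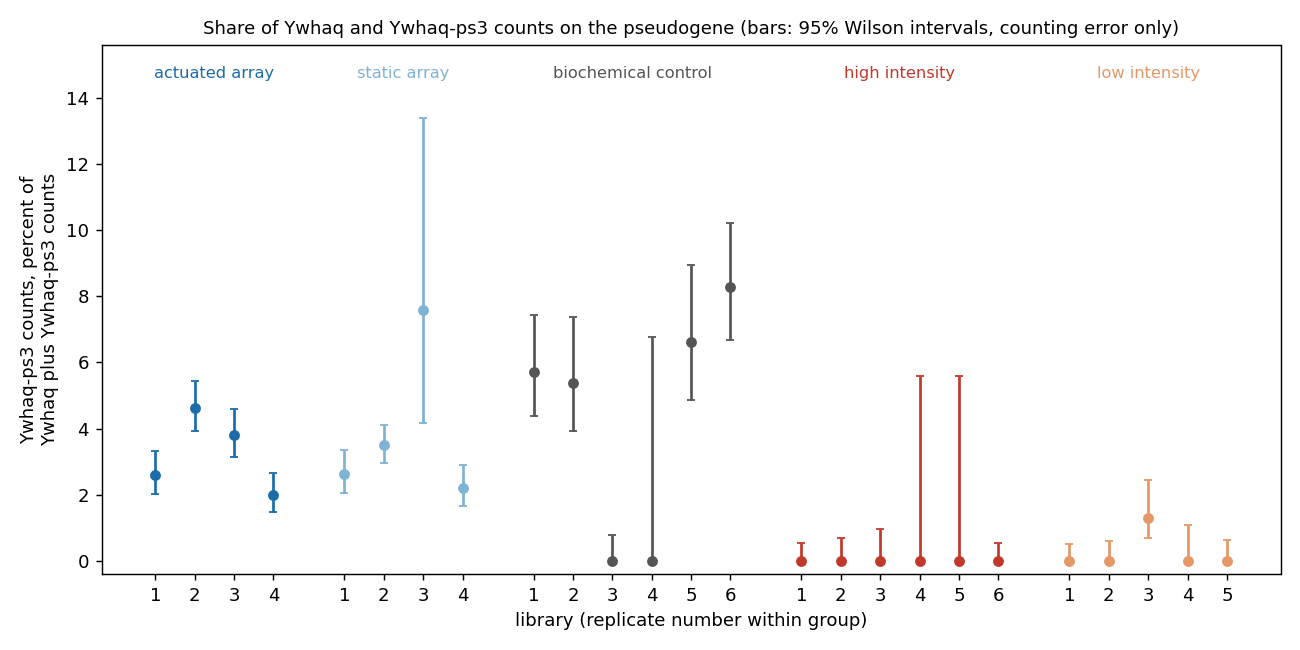
Share of Ywhaq-ps3 in the counts of Ywhaq and Ywhaq-ps3 (percent, vertical axis) in each library with counts of either (horizontal axis, by group), with 95% Wilson intervals for counting error. Array libraries sit between 1.98% and 7.58%, 4 controls between 5.39% and 8.27%, and all high-intensity libraries at 0. Controls 3 and 4 and low intensity 1, 2, 4 and 5 are also at 0, and low intensity 3 is at 1.29%.

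In the deeper libraries the other near copy did not show this split. In the shallow high intensity 4 the copy had 0 counts beside 65 of Ywhaq. Gm2423 had 327, 362, 238, 9, 265 and 429 counts in controls 1 to 6, and 385, 305, 315, 0, 68 and 459 in the high-intensity libraries. At low intensity it had 580, 407, 423, 197, 302 and 0. Its share of the counts of Gm2423 and Ywhaq was 32.3% in pooled controls, 38.2% at high intensity and 38.7% at low intensity, against 35.1% and 37.6% in the actuated and static groups.

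Gm2423 was thus counted in each deeper library, including those with 0 counts of Ywhaq-ps3. Its log2 fold change for high intensity against control was 0.08 (SE 0.13, adjusted p = 0.82; deeper libraries), and the largest in any comparison was 0.53 for static against control (SE 0.14, adjusted p = 0.076). Gm2423 held 15386 counts over all libraries beside 27086 of Ywhaq and 813 of Ywhaq-ps3, so Gm2423 took most of the counts on the pseudogenes of Ywhaq. With Ywhaq and its near-identical pseudogenes summed, the deeper libraries gave -0.21 (SE 0.11, adjusted p = 0.35) for high intensity against control and 0.02 (SE 0.12) for actuated against static. The pseudogenes named Ywhaq-ps1 and Ywhaq-ps2 held too few counts to describe. For Ywhaz, the near copy Gm4202 held 3338 counts beside 128778, that is 2.53% of the counts of both.

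Sfn, the epithelial member, was counted at a few CPM. It stood at 3.51, 5.92, 5.53 and 4.40 CPM in the actuated libraries and at 5.89, 5.48 and 6.23 in the deeper static ones. The deeper controls were at 0, 14.1, 3.83, 1.05 and 9.18, the high-intensity ones at 11.0, 5.47, 11.7 and 4.31, and the low-intensity ones at 3.41, 3.33, 5.73, 0.712 and 0. The array libraries were close to each other, while the biochemical groups were scattered and overlapped. Log2 fold changes in the deeper libraries were -0.27 (SE 0.83) for actuated against static, 0.50 (SE 0.76) for high intensity against control, -1.05 (SE 0.77, adjusted p = 0.56) for low intensity against control and 1.55 (SE 0.79, adjusted p = 0.67) for high against low intensity.

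Epithelial markers were counted in the same libraries. The 7 markers (Krt5, Krt8, Krt14, Krt18, Epcam, Cdh1, Trp63) summed to between 12.8 and 218 CPM over the deeper libraries, most of it Krt8 and Krt18, and the basal keratin Krt5 was at no more than 1.42. Their sum and Sfn correlated over the 21 deeper libraries (Pearson r = 0.72, permutation p = 0.00033; Spearman rho = 0.66, permutation p = 0.00173), and over the 14 of the biochemical arm (r = 0.78, permutation p = 0.00147; rho = 0.75, permutation p = 0.00276). Over the 7 array libraries r was 0.42 (exact permutation p = 0.345) and rho 0.43 (exact permutation p = 0.354). These 3 relations gave Benjamini-Hochberg adjusted values of 0.00099, 0.0022 and 0.345 for r and of 0.00414, 0.00414 and 0.354 for rho. Libraries were permuted freely across groups, so differences between groups enter these p-values. The 21 libraries contain the 14 and the 7, so the 3 relations are not separate results. Without the 2 libraries farthest from the median of the marker sum, r was 0.51, 0.58 and -0.56, so the relation kept its sign in the biochemical arm and turned in the array arm.

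Genes around the family were taken from a list of 48 partners that bind 14-3-3 proteins at phosphorylated sites and 14 kinases that phosphorylate such sites, of which 60 had enough counts to be tested. None passed an adjusted p of 0.05 in any comparison with all libraries (edgeR), where 0, 3, 2, 0 and 3 had an unadjusted p under 0.05 in the order of comparisons above, beside 3.86%, 7.04%, 5.23%, 2.91% and 5.27% of all genes; DESeq2 and limma voom also called none. Smallest p for actuated against static belonged to Akt1s1, a substrate of Akt in the mTOR pathway (-0.54, SE 0.42), and to Cdc25c, a cell-cycle phosphatase held in the cytoplasm by 14-3-3 binding (-1.24, SE 1.04). For high intensity against control they were Tbc1d4, an Akt substrate of glucose uptake (1.22, SE 0.45, adjusted p = 0.44), and Cby1, an inhibitor of beta-catenin (-0.90, SE 0.36, adjusted p = 0.50). Nedd4l, a ubiquitin ligase (0.46, SE 0.29), and Tbc1d1, a relative of Tbc1d4 (-0.56, SE 0.36), came first for high against low intensity, and Cdc25c (2.42, SE 1.00, adjusted p = 0.75) and Sgk1, a kinase related to Akt (1.09, SE 0.52, adjusted p = 0.91), for static against control.

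Yap1 and Wwtr1 (Taz), transcriptional co-activators that 14-3-3 binding keeps in the cytoplasm, had the smallest p for low intensity against control, where Yap1 had 0.78 (SE 0.35, adjusted p = 0.86) with all libraries. Wwtr1 stood at 31.9 to 50.5 CPM in the deeper controls, at 62.7 to 91.1 at low intensity and at 36.0 to 71.0 at high intensity. All deeper low-intensity values lay above the deeper controls. The share of all genes without overlap is not given here, so nothing is read from this separation. Against control the low-intensity fold change of Wwtr1 was 0.74 (SE 0.31, adjusted p = 0.79) with all libraries and 0.76 (SE 0.17, adjusted p = 0.037) in the deeper ones. Hdac5, a class IIa histone deacetylase exported from the nucleus when bound by 14-3-3, stood at 94.3 to 96.3 CPM in the deeper static libraries and at 49.5 to 73.1 in the deeper controls, a log2 fold change of 0.65 (SE 0.13, adjusted p = 0.015). Nothing is read from the separation of these ranges either.

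Those were the partner genes called in the deeper libraries, 1 of 60 for low intensity against control and 1 of 60 for static against control, beside 0.597% and 0.713% of all genes. At an unadjusted p under 0.05 (edgeR, deeper libraries) the list gave 0, 12, 13, 7 and 15 of 60, in the order of comparisons above. Over all genes tested the shares were 0.38%, 15.9%, 15.2%, 7.68% and 12.6%. The counts of the list were not tested against these shares. Leaving out 1 deeper library at a time, the call of Wwtr1 was lost in 11 of 21 fits, with an adjusted p of up to 0.12, and that of Hdac5 in 3, with up to 0.084. Yap1 stood at 34.5 to 69.1 CPM at high intensity against 22.1 to 37.5 in deeper controls, with a log2 fold change of 0.81 (SE 0.19, adjusted p = 0.054), which did not pass. Medians of the 60 genes in the deeper libraries were between -0.02 and 0.03 over the 5 comparisons, beside -0.01 to 0.01 for all genes.

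By the root mean square difference of log2 CPM, each gene centred on its own mean, the 3 genes most like Ywhaq over the 21 deeper libraries were Cpe (0.114), Mllt11 (0.115) and Olfm1 (0.120) among 12037 genes with a mean of at least 5 CPM. Ywhaq itself varied by 0.23 on that scale. For Ywhaq-ps3 the nearest were Scarna10 (1.29), Mgarp (1.34) and Cyp4x1 (1.36), against its own variation of 1.85. This measure depends on how much each gene varies, so Ywhaq, at 0.23, could not be among the 3 nearest. Nothing is read from its absence. The variation of Ywhaq-ps3 also includes the libraries on which it was selected.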

How the data were processed

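The authors deposited expected counts in whole numbers and TPM values for 26 libraries. Per the submitters' processing notes BWA 0.7.12-r1039, bedtools 2.25.0, STAR and Salmon were used on builds that include mm10 and GRCm39, with no role given; read assignment between near-identical copies is not given there. The members, gene lists and tests were chosen with earlier results of these data known. Counts as deposited were tested with edgeR 4.0.16 (R 4.3.3): genes kept by filterByExpr (14907), TMM scaling, 1 coefficient per group over 26 libraries, quasi-likelihood F-test and Benjamini-Hochberg adjustment per comparison with a threshold of 0.05. CPM here uses TMM library sizes. SEs were computed as the fold change over the root of F, and approximate 95% intervals are the estimate ± 1.96 SE. The deeper libraries have over 1000000 counts on protein-coding genes. Alternatives used DESeq2 1.42.0, limma 3.58.1 and other filters, scalings and libraries; tests were checked on simulated data. Coordinates and sequences are from GENCODE M21 (GRCm38), matched by gene identifier. All 8 members were named; of the partner list those called, or the 2 with the smallest p per comparison; and the 3 genes nearest to Ywhaq and to Ywhaq-ps3. Gm2423 and Gm4202 were added after their sequence and counts were seen. Skeletal muscle markers (Myod1, Myog, Acta1, Myh3) summed to at most 12.6 CPM and pluripotency markers (Pou5f1, Nanog) to at most 4.72 in the deeper libraries. No sample column was without a sample (0).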

Additional observations from a re-analysis of the deposited data

Results flagged for a closer look

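Of 39 groups of values tested (a member in a group of 4 or 6 libraries, in CPM), 8 held a library far from the others, by a rule set to flag about 1 in 20. Of these, 6 are in low intensity 6, which has 1536 counts in all, so the 8 are not separate results and their number is not set against chance. Its Ywhab was 0 CPM beside 299.7 to 389 in the other 5 libraries, its Ywhae 0 beside 1587 to 1781, its Ywhag 0 beside 849 to 951, its Ywhah 0 beside 644 to 835 and its Ywhaq 0 beside 229 to 263. Its Ywhaz was 19.9 CPM, from 1 count, beside 1185 to 1294. The TMM factor of this library was 36.7, against 0.233 to 1.43 in all others.

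Sfn in high intensity 5 was 34.5 CPM, from 14 counts in a library of 495044, beside 0 to 11.7 in the other 5. Ywhaq-ps3 in low intensity 3 was 3.44 CPM, from 9 counts, beside 0 in the other 5 libraries of its group. With 0 in all the others, any count there would have been flagged.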

How the results depend on the processing

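None of the 7 coding 14-3-3 genes was called in any of 489 estimates under 14 alternatives, nor in 1645 estimates with 1 library left out (26 fits of all libraries and 21 of the deeper ones). Of the 489, 68 had the opposite sign to the estimate reported; no sign of an uncalled estimate is given as a direction. Partner genes and kinases were called in 1 case for low intensity against control and in 1 for static against control in the deeper libraries, also with Ywhaq summed with its near-identical pseudogenes; leaving out 1 deeper library the calls ranged from 0 to 3 (high intensity against control), from 0 to 2 (low intensity against control) and from 0 to 2 (static against control). Genes called over the whole table, in the order of comparisons above, were 0, 6, 4, 0 and 2 as reported, 0, 68, 88, 0 and 105 in the deeper libraries, 27, 76, 18, 6 and 10 with DESeq2, 0, 0, 0, 0 and 42 with limma voom, and 1137, 220, 153, 107 and 219 without a filter on low counts; the cause was not tested. Removing the filter also moved the median of all genes to -0.72 for actuated against static, and log2(TPM + 1) moved it to 0.74 for static against control, so TPM was not compared between groups.

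Replicate numbers are shared between groups. Of 26 same-numbered pairs, 4 had a correlation of deviations over 0.1 (range -0.256 to 0.203), and 9 correlated best with their own number. How many would do so in unpaired samples was not computed, so whether the numbers pair the samples is not settled. With the replicate number as a block, 0, 1, 4, 0 and 1 genes were called over the whole table and 0 of the 7 coding 14-3-3 genes in each comparison.

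With the 5 shallow libraries in the fit, SEs of the 6 abundant genes were between 0.31 and 0.49, against 0.09 to 0.12 in the deeper libraries.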
